A study of Rattus norvegicus with 6 samples.

Results

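The transcriptional coactivators YAP (Yap1) and TAZ (Wwtr1), the 4 TEAD transcription factors through which they act (Tead1, Tead2, Tead3 and Tead4) and 4 of their target genes (Ccn1, Ccn2, Amotl2 and Ajuba) were followed in rat RA-FLS. The 10 genes were chosen by name as the effectors and well-known targets of the Hippo pathway, and each was found once among the 34156 genes of the count table. RA-FLS is the study's name for its cells, where FLS stands for fibroblast-like synoviocytes, the lining cells of the joint. The cells are labelled here as wild type and rheumatoid arthritis and were used at passage 4. The cells of 3 libraries received TNF-α at 10 ng/mL (the TNF-α group), and those of the other 3 received the same TNF-α and, with it, 80 μmol/L EMO (the TNF-α+EMO group). EMO is emodin, an anthraquinone of rhubarb. Both groups therefore carry TNF-α, and no untreated cells were analysed here. The labels give day 5 for all 6 libraries, whereas the study's methods give a shorter incubation. The cells were a purchased culture, and nothing states that the libraries came from separate animals, so p-values measure the spread between these libraries, which may be technical.

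In the Hippo pathway, the kinases MST1 and MST2 (Stk4 and Stk3) with their scaffold SAV1 activate the kinases LATS1 and LATS2 with their MOB1 partners. LATS kinases phosphorylate YAP and TAZ, which are then held in the cytoplasm by 14-3-3 proteins or degraded. Unphosphorylated YAP and TAZ enter the nucleus, bind TEAD factors and switch on genes such as Ccn1 and Ccn2. The pathway responds to cell density, stiffness and tension, and in fibroblasts YAP and TAZ are known for driving proliferation and matrix production. Phosphorylation and location of YAP and TAZ are not measured by RNA-seq, so only mRNA is described.

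The libraries held 16813322 to 17794455 counts on genes. Normalised counts are these counts scaled between libraries by edgeR's TMM factors. They are relative to the other genes of a library, and no measure of RNA per cell was used here. Higher and lower are therefore relative too, and the absolute direction of a small change is not known. A gene is called higher or lower at an adjusted p under 0.05 by edgeR's quasi-likelihood test, adjusted over all 13614 genes tested, and log2 fold changes are TNF-α+EMO over TNF-α, given with their standard error (SE). The groups lay far apart over the whole transcriptome: 80.9% of tested genes were called, 39.4% higher and 41.4% lower with EMO, and the groups did not overlap in 82.9%. With a log2 fold change beyond 1 in size as well, 47.3% were called, 19.5% higher and 27.8% lower. Between libraries of 1 group, a chi-square statistic per gene, near 1 for sampling noise, ranged from 4.75 to 25, highest between TNF-α+EMO replicates 1 and 3. Fibroblast markers moved as well, since 7 of the 8 tested fell and 1 (Dcn) rose. Summed over the 11 fibroblast markers in the table, normalised counts ran from 200644 to 220756 with TNF-α and from 35161 to 37832 with EMO. Among them Col1a1 fell from 111181 ± 9932 to 3709 ± 46.1 normalised counts (SD, n = 3 each), and Vim from 61464 ± 1350.3 to 32387 ± 1299. The defining markers Thy1, Pdpn and Prg4 had at most 7 counts in any library of either group, so they do not bear out the study's name for the cells. The macrophage marker Ptprc had at most 1 count, and the epithelial marker Epcam and the endothelial marker Kdr were at 0 throughout, although Krt8 was at 10389 ± 432 and 2140.0 ± 168. The macrophage marker Cd14 was at 1093 ± 57.8 normalised counts with TNF-α and 510.3 ± 41.2 with EMO. Cd68 was at 153 ± 14.7 and 256 ± 11.3, and Itgam at 0.327 ± 0.566 and 12.3 ± 2.02. The endothelial marker Vwf was at 53.4 ± 1.07 and 4.46 ± 4.18. The summed level of 6 macrophage markers (2 rose and 1 fell of 3 tested) was 1199 to 1301 with TNF-α and 747 to 818 with EMO. That of 5 epithelial markers (1 fell of 1 tested) was 9950 to 10806 and 1968 to 2304, and that of 4 endothelial markers (1 fell of 1) was 69.2 to 76.5 and 13.2 to 21.7. For 5 smooth muscle and pericyte markers (3 fell of 3) it was 789 to 883 and 13.2 to 18.6. The part of these differences in the results on YAP, TAZ and TEAD was not tested, and in bulk RNA fewer cells of a type and less RNA per cell cannot be told apart.

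All 10 genes passed the filter on low counts, and all 10 were called, 8 lower and 2 higher with EMO. Over all tested genes 80.9% were called, 41.4% lower and 39.4% higher. The 8 that fell all did so by more than 1 on the log2 scale, against 27.8% of all tested genes, and the 2 that rose, Wwtr1 and Tead3, did so by less than 1. The groups did not overlap in any of the 10, as in 82.9% of all tested genes. Their median log2 fold change was -2.59, beside -0.01 over all tested genes. Every one of the 10 calls kept its direction and its side of the threshold under the 12 alternative fits, which changed the test, the scaling, the filter, the replicate block or left out 1 library.

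**Figure D1:**
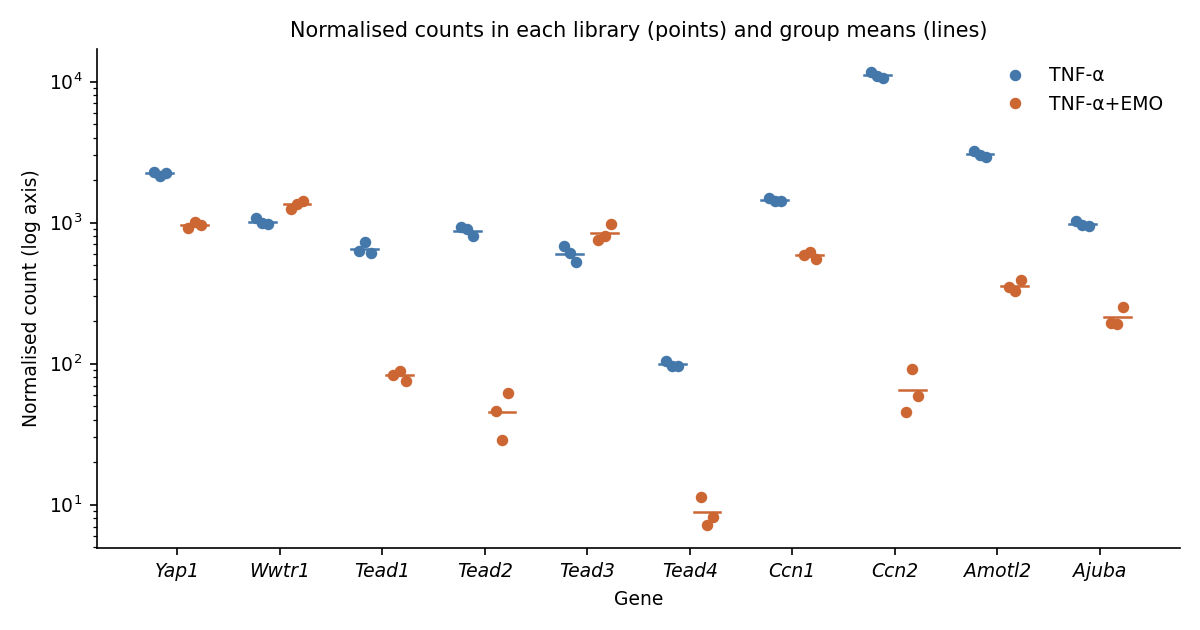
Normalised counts (log axis) of the 10 genes in each of the 3 TNF-α and 3 TNF-α+EMO libraries (points), with the mean of each group (lines). The groups are apart for every gene, with TNF-α+EMO below TNF-α except for Wwtr1 and Tead3, and the gap is widest for Ccn2.

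Relative to the other genes, the paired coactivators moved in opposite directions. YAP mRNA (Yap1, ENSRNOG00000005933, chromosome 8, 6135493 to 6203579, minus strand, in the deposited coordinates, for which the submitters' processing notes name Rnor_6.0) was at 2278, 2155 and 2267 normalised counts with TNF-α and at 909.7, 1003 and 963 with EMO. Every TNF-α+EMO library was thus below every TNF-α library, and Yap1 was 2.33-fold lower, a log2 change of -1.22 (SE 0.07, adjusted p = 1.6e-08). TAZ mRNA (Wwtr1, ENSRNOG00000016617, chromosome 2, 147577089 to 147693082, minus strand) had 1083, 994 and 974 normalised counts with TNF-α and 1256, 1355 and 1435 with TNF-α+EMO. It rose in all 3 TNF-α+EMO libraries over all 3 TNF-α libraries, by 0.41 (log2, SE 0.08, adjusted p = 5.0e-04), or 1.33-fold. Across the alternatives the change of Yap1 ranged from -1.33 to -1.19 and that of Wwtr1 from 0.29 to 0.46.

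The balance between the 2 coactivators was read within each library, where the scaling between libraries plays no part. Of the summed counts per kilobase of Yap1 and Wwtr1, Yap1 made up 69.2%, 69.8% and 71.3% with TNF-α and 43.6%, 44.1% and 41.7% with EMO. The mean share went from 70.1% ± 1.08 to 43.1% ± 1.27 (SD, n = 3 each), a difference of -27.0 percentage points (exact two-sided permutation test, p = 0.1, the smallest p that 3 against 3 libraries allow). YAP mRNA was thus the more abundant of the pair per length with TNF-α alone and TAZ mRNA with EMO. Their sum in normalised counts per kilobase was 2063 ± 66.8 with TNF-α and 1439 ± 76.8 with EMO, 1.43-fold lower (exact permutation test, p = 0.1). Shares and levels per kilobase use the deposited gene lengths, 1545 bases for Yap1 and 1647 for Wwtr1, and would shift with another gene model, as would the changes in shares and in summed levels. The fold change of a single gene does not depend on its length.

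TEAD factors carry the DNA-binding TEA domain and have no strong activation domain of their own, so they depend on YAP, TAZ or other cofactors. Of the 4 genes, 3 fell and 1 rose. Tead1 (ENSRNOG00000015488, chromosome 1, 177495782 to 177707061, plus strand) went from 628, 725 and 611 normalised counts with TNF-α to 83.5, 89.0 and 75.4 with EMO. The 2 genes listed within its coordinates had no counts. The groups did not overlap, and Tead1 was 7.92-fold lower, a log2 change of -2.98 (SE 0.12, adjusted p = 1.4e-09). Tead2 (ENSRNOG00000020695, chromosome 1, 101213788 to 101230477, plus strand) went from 929, 905 and 803 normalised counts to 46.4, 28.7 and 62.1. This was the largest decrease among the TEAD genes, a log2 fold change of -4.26 (SE 0.20, adjusted p = 1.5e-08) or 19.2-fold, although the TNF-α+EMO libraries differed among themselves more than the TNF-α libraries did (coefficients of variation of 36.6% and 7.62%).

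Tead4 (ENSRNOG00000005608, chromosome 4, 161540130 to 161587222, minus strand) was the least abundant TEAD gene in both groups. It had 105, 95.6 and 95.5 normalised counts with TNF-α and 11.3, 7.16 and 8.15 with EMO. Its log2 fold change of -3.46 has a wider SE of 0.27 (adjusted p = 3.9e-07), as it rests on 7 to 11 counts in each TNF-α+EMO library. Tead3 (ENSRNOG00000000506, chromosome 20, 7908226 to 7930929, minus strand) was the exception, with 678, 605 and 525 normalised counts under TNF-α and 757, 806 and 975 under TNF-α+EMO. The groups did not overlap, and Tead3 rose by 0.49 (log2, SE 0.12, adjusted p = 0.0029). Over the alternatives this value ranged from 0.37 to 0.58, with a largest adjusted p of 0.018. The count of Tead3 is less certain than the others, since Rpl10a lies within its coordinates on the opposite strand (7908304 to 7910867), the strand setting of the counting is not given in the sources used here, and Rpl10a, a ribosomal protein gene that every cell uses, is listed at 0 in all 6 libraries. Of 81 Rpl and Rps genes tested, 74 rose and 1 fell with EMO (median of 1.03 as log2), and whether reads of Rpl10a entered the count of Tead3 was not tested.

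The make-up of the TEAD family changed accordingly. Of the summed TEAD counts per kilobase, Tead2 and Tead1 made up 45.5% ± 1.3 and 40.7% ± 2.36 in the TNF-α group, Tead3 11.6% ± 0.994 and Tead4 2.14% ± 0.16 (SD, n = 3). In the TNF-α+EMO group Tead3 made up 67.8% ± 2.5, Tead1 21.6% ± 3.69, Tead2 9.71% ± 2.84 and Tead4 0.808% ± 0.245. In each of the 4 genes the libraries of the groups did not overlap (exact two-sided permutation test, p = 0.1 each and 0.1 after adjustment over the 4). The share of Tead3 was 12.8%, 11.1% and 11.1% with TNF-α, and it was 65.1%, 68.5% and 70.0% with EMO. The summed TEAD level fell from 881 ± 64.2 to 212 ± 21.9 normalised counts per kilobase, 4.16-fold. Without Tead3, whose count is uncertain, the sum fell from 778 ± 55.1 to 67.8 ± 4.13, 11.5-fold, and among the other three Tead1 then made up 46.1% ± 2.18 with TNF-α and 67.2% ± 9.6 with EMO.

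**Figure D2:**
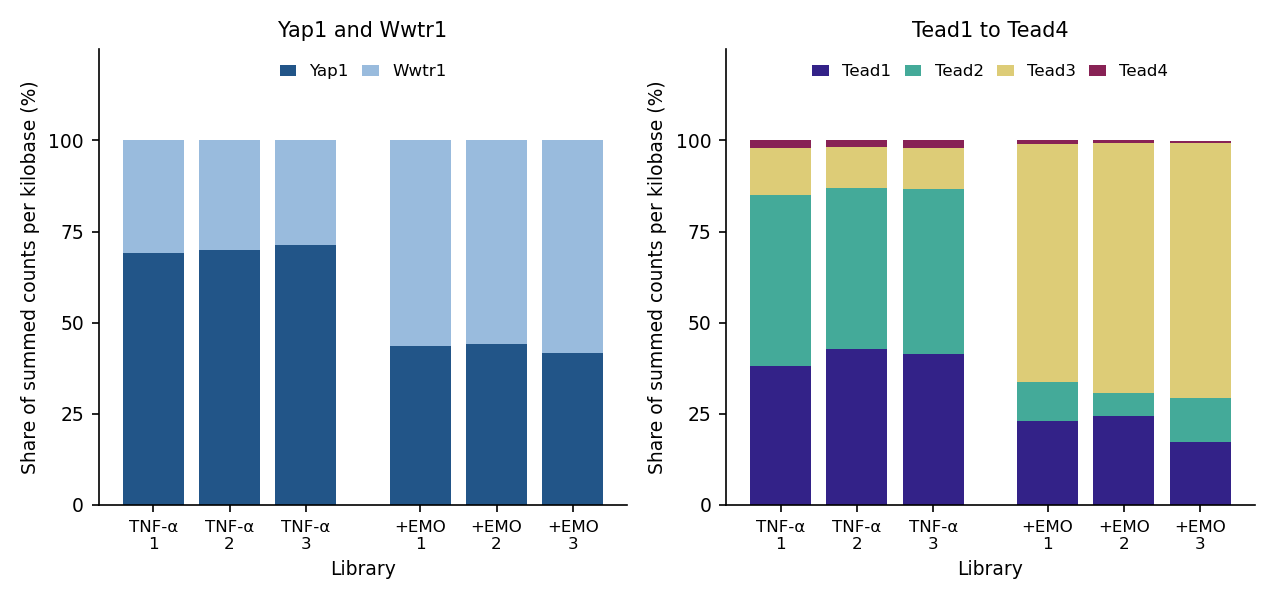
Share of summed counts per kilobase (%) in each library, for Yap1 and Wwtr1 (left) and for Tead1 to Tead4 (right), with the 3 TNF-α libraries on the left of each panel and the 3 TNF-α+EMO libraries on the right. Yap1 goes from 69.2% or more to 44.1% or less of the pair, and Tead3 from 12.8% or less to 65.1% or more of the family.

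Of the 4 targets, Ccn2 and Ccn1 encode secreted matricellular proteins of the CCN family, formerly CTGF and CYR61, that act on adhesion, migration and matrix production. Their promoters are shown because they are the standard reporters of YAP, TAZ and TEAD, together with those of Amotl2, Ajuba and Yap1, in which the same motif was found. Promoters were taken from RefSeq on build GRCr8, which held 1 window each for 7 of the 10 genes (not Tead1, Tead2 and Tead4). The 250 bases before the transcription start are printed 5′ to 3′ on the gene's strand, and capitals mark the TEAD motif CATTCC or, read from the other strand, GGAATG. In order, they lie on the minus strand at chr1:22624615-22624864 (Ccn2) and chr2:237225690-237225939 (Ccn1), on the plus strand at chr8:112182376-112182625 (Amotl2), and on the minus strand at chr15:32000043-32000292 (Ajuba) and chr8:13451438-13451687 (Yap1).
Ccn2: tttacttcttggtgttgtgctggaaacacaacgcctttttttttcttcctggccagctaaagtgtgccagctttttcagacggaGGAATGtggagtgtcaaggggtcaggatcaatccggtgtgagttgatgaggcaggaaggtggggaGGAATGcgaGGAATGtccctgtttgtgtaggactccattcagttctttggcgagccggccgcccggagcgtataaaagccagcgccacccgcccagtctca
Ccn1: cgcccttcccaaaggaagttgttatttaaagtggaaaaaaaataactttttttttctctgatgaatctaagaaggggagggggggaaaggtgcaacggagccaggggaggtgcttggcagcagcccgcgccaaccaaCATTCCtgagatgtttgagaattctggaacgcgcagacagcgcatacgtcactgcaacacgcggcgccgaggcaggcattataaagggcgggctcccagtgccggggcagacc
Amotl2: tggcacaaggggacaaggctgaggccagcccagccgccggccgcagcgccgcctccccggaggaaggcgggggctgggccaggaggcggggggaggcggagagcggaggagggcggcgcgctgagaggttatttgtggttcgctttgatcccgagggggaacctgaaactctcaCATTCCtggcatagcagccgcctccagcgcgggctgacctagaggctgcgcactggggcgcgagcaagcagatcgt
Ajuba: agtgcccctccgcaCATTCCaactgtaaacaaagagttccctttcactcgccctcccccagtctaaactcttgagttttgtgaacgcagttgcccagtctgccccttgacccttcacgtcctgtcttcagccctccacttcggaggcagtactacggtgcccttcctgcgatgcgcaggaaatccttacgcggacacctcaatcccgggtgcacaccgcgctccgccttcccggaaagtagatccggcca
Yap1: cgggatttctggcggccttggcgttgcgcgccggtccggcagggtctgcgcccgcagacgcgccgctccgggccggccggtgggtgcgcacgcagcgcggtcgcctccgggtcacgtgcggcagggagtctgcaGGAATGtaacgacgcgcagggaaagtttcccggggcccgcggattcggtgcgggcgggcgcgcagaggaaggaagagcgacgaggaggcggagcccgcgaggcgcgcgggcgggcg

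The Ccn2 window held 3 matches, starting 166, 101 and 92 bases before the start site, the latter pair close together. Ccn1 held 1 match, 113 bases before the start, Amotl2 1 at 76, Ajuba 1 at 236 and Yap1 1 at 116. The windows of Wwtr1 and Tead3 held none, which says only that these letters are not in those bases. Matches were also counted in the gene lists described below. Of the other YAP/TAZ targets 11 had a window, and 2 of these held a match (Ptpn14 and Nuak2, both called lower). Of the kinases and upstream regulators it was 4 of 14, with Sav1, Wwc2 and Ptpn14 called lower and Mob1b higher. Of the other partners and regulators it was 4 of 10 (Zyx, Trip6, Vgll3 and Vgll4, all called lower), and of the 14-3-3 genes 0 of 6. Listed genes with a window and no match went both ways. Among them Axl, Frmd6 and Amotl1 were called lower, and Gadd45a, Mob1a and Btrc higher. Whether a match goes with direction in these lists was not tested. Among all 33469 RefSeq promoter windows of this length, 12.1% held at least 1 match on either strand and 0.0807% (27 windows) held 3 or more. Of 9225 tested genes with a window, 10.6% held a match, against 12.7% of the 2498 that fell and 9.38% of the 1727 that rose by more than 1 on the log2 scale. The TATA box (TATAAA, either strand), in 12.9% of all windows, was found in those of Ccn2 and Ccn1 alone among the 7 genes. The AP-1 motif (TGANTCA, which reads the same on both strands), in 6.34% of all windows, and the CArG box bound by SRF, in 1.5%, were in none of the 7. No match overlapped another in these windows. A match is a description of the sequence, and binding was not measured.

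**Figure D3:**
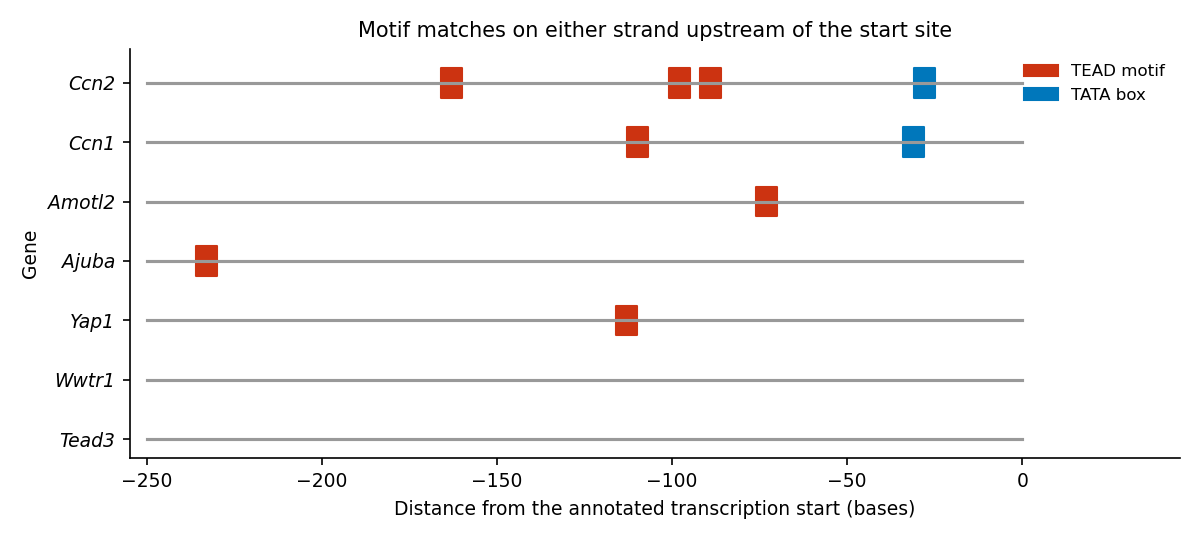
Matches to the TEAD motif and the TATA box on either strand (boxes) along the 250 bases before the annotated transcription start of 7 genes, by distance from the start in bases. Ccn2 holds 3 TEAD motifs, Ccn1, Amotl2, Ajuba and Yap1 hold 1 each, and Wwtr1 and Tead3 hold none.

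Ccn2 had the largest change of the 10 genes. Ccn2 (ENSRNOG00000015036, chromosome 1, 21851660 to 21854773, minus strand) went from 11716, 11046 and 10687 normalised counts with TNF-α to 45.4, 91.1 and 59.1 with EMO. The groups were 171-fold apart, while the TNF-α+EMO libraries had a coefficient of variation of 36.0%. Its log2 fold change of -7.41 (SE 0.18, adjusted p = 7.1e-10) was the 235th lowest of the 13614 tested genes. Ccn1 (ENSRNOG00000014350, chromosome 2, 251529354 to 251532312, minus strand) had 1495, 1419.8 and 1417 normalised counts with TNF-α and 594, 620.1 and 553 with EMO. It fell without overlap of the groups, 2.45-fold or by 1.29 as log2 (SE 0.07, adjusted p = 2.8e-08). The 2 CCN genes thus changed by very different amounts. Per kilobase, Ccn2 was above Ccn1 with TNF-α (4111 ± 193 and 728 ± 22.2 normalised counts) and below it with EMO (24.0 ± 8.65 and 297 ± 17).

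Amotl2 encodes an angiomotin family scaffold at cell junctions that binds YAP and TAZ and is induced by them, a negative feedback. Amotl2 (ENSRNOG00000008487, chromosome 8, 111209908 to 111226226, plus strand) was at 3207, 3013 and 2942 normalised counts with TNF-α and at 352, 327 and 391 with EMO. The groups were well apart, and Amotl2 was 8.56-fold lower, a log2 change of -3.10 (SE 0.08, adjusted p = 6.6e-11). Ajuba encodes a LIM-domain protein of junctions that binds and restrains LATS kinases. Ajuba (ENSRNOG00000012791, chromosome 15, 33208216 to 33218456, minus strand) had 1022, 959 and 941 normalised counts with TNF-α and 195, 191 and 254 with EMO. All 3 TNF-α+EMO libraries were below the TNF-α libraries, at a log2 fold change of -2.19 (SE 0.11, adjusted p = 1.3e-08), and replicate 3 was above the other two.

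**Figure D4:**
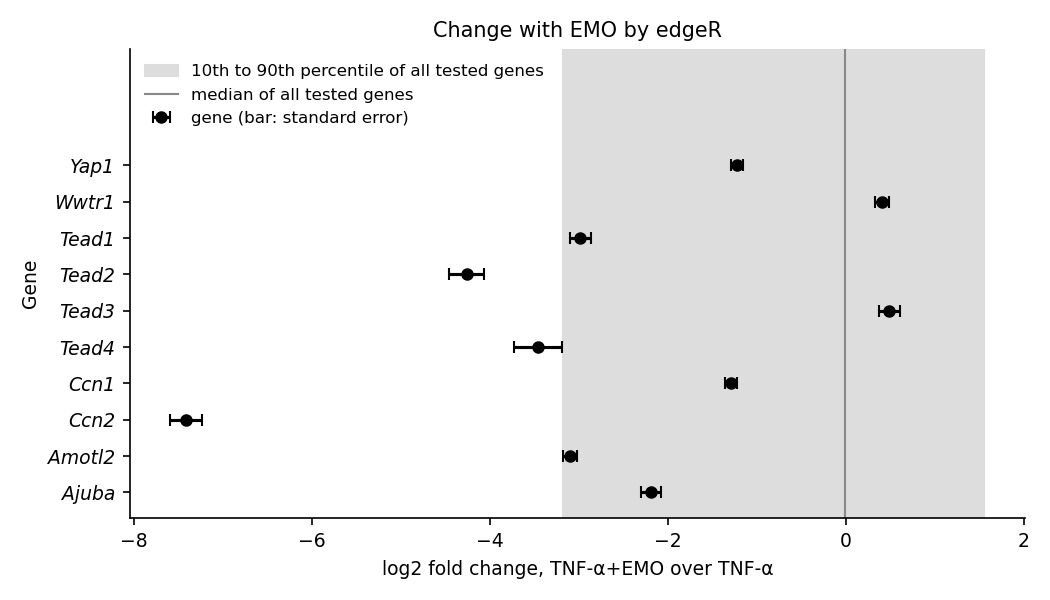
log2 fold change of TNF-α+EMO over TNF-α by edgeR for the 10 genes (points, with bars of 1 standard error), over the 10th to 90th percentile of all tested genes (grey band, -3.18 to 1.56) and their median (line). Ccn2, Tead2 and Tead4 lie below the band, and Wwtr1 and Tead3 are the 2 genes right of 0.

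Set in order per kilobase, Ccn2 led in the TNF-α group, followed by Yap1 (1445 ± 43.9), Ccn1, Amotl2 (651 ± 29.3), Wwtr1 (617 ± 35.2), Tead2 (401 ± 30.5), Tead1 (359 ± 33.6), Ajuba (302 ± 13.2), Tead3 (103 ± 13) and Tead4 (18.8 ± 1.04). The libraries of Amotl2 and Wwtr1 overlapped, as did those of Tead2 and Tead1, and no other neighbours did. With EMO the order began with Wwtr1 (819 ± 54.4), Yap1 (620.3 ± 30.2), Ccn1, Tead3 (144 ± 19.4), Amotl2 (76.1 ± 6.86), Ajuba (66.1 ± 10.8) and Tead1 (45.3 ± 3.76), and ended with Ccn2, Tead2 (20.8 ± 7.64) and Tead4 (1.69 ± 0.416). There Amotl2 overlapped with Ajuba and Ccn2 with Tead2. Ccn2 went from the first to the eighth place.

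Other targets of YAP and TAZ were read from a list of 19 genes often used as their signature, without the genes above, of which 18 were in the table and 17 tested. Of these 13 fell, 2 rose and 2 were not called, beside 41.4% lower and 39.4% higher over all tested genes. All 13 fell by more than 1 on the log2 scale, as 27.8% of all tested genes did. Their median log2 fold change was -2.33. The lowest values among those with a mean of at least 100 counts were those of Arhgef17, of Myof, a membrane repair protein, and of Tgfb2, a TGF-β ligand. Arhgef17 fell from 4235 ± 123 to 308 ± 39.0 normalised counts, a log2 fold change of -3.78 (SE 0.09, adjusted p = 3.6e-11). Myof fell from 17584 ± 789.8 to 1355 ± 139, by 3.70 on the log2 scale, and Tgfb2 from 1119 ± 30.0 to 111 ± 5.23, by 3.34. Axl, a receptor tyrosine kinase, fell from 6958 ± 265 to 778 ± 51.7, a log2 fold change of -3.16 (SE 0.07, adjusted p = 2.3e-11).

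Gadd45a, a growth arrest and DNA damage protein also induced by p53 and ATF4, went the other way, from 679.5 ± 38.5 to 33386 ± 5481 normalised counts, a log2 fold change of 5.62 (SE 0.13, adjusted p = 2.7e-10). Lats2, a kinase of the core cassette that is also a target, rose by 0.19 (SE 0.06, adjusted p = 0.016), a call lost in 3 of 12 alternatives, with library totals (adjusted p = 0.28) and without TNF-α replicate 1 (adjusted p = 0.058) or 3 (adjusted p = 0.067). Ankrd1, a much used target, was scarce in both groups, with 20.5 ± 0.919 and 27.0 ± 5.89 normalised counts and a log2 fold change of 0.39 (SE 0.30, adjusted p = 0.24). Fjx1, the other gene not called, was at 214 ± 21.9 and 223 ± 4.3. Igfbp3 had too few counts to test.

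The other CCN genes are the closest relatives of Ccn1 and Ccn2. Of 3 tested, all fell and none rose, also at an unadjusted p under 0.05 by edgeR and by DESeq2 (0 each), beside 41.4% lower and 39.4% higher over all tested genes. Of the 3, 2 fell by more than 1 on the log2 scale, as did 27.8% of all tested genes. Ccn3 fell from 12209 ± 1151 to 271 ± 46.3 normalised counts, by 5.49 on the log2 scale (SE 0.13, adjusted p = 1.4e-10), Ccn5 from 1554 ± 137 to 134 ± 25.4, by 3.53, and Ccn4 from 495 ± 28.0 to 343 ± 18.4, by 0.53. Ccn6 had at most 1 count in any library.

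The core Hippo kinases each changed by less than 1 on the log2 scale, although Stk4 ranged from -1.07 to -0.88 over the alternatives. Of a list of 18 kinases and upstream regulators, 17 were tested, of which 13 fell, 3 rose and 1 was not called. All tested genes fell in 41.4% and rose in 39.4%. The median log2 fold change of the list was -0.81, beside -0.01 over all tested genes. Of the 17, 5 fell by more than 1 on the log2 scale, beside 27.8% of all tested genes. Wwc1 had too few counts to test. Stk4 and Stk3, the MST kinases, fell from 777 ± 46.7 to 399 ± 46.0 and from 858 ± 37.0 to 673 ± 25.4 normalised counts, by 0.96 (SE 0.10) and 0.35 (SE 0.08) on the log2 scale. Sav1 fell by 0.59 (SE 0.06) and Nf2, the upstream scaffold merlin, by 0.24 (SE 0.07). Lats1 was not called, at 1373 ± 84.6 and 1585 ± 279 normalised counts (log2 fold change 0.21, SE 0.12, adjusted p = 0.13). Mob1b and Mob1a rose by 0.31 (SE 0.12, adjusted p = 0.028) and 0.24 (SE 0.06, adjusted p = 0.0053). The 3 rises, those of Lats2, Mob1a and Mob1b, were all lost with scaling by library totals, which lowers the median of all genes from -0.01 to -0.12. The call on Mob1b was also lost without TNF-α+EMO replicate 1 or any 1 TNF-α library (adjusted p = 0.054 to 0.11), and Lats1 was called without TNF-α+EMO replicate 3, at 0.32 (adjusted p = 7.1e-04).

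The larger decreases in this list were outside the core kinases. Frmd6, a FERM-domain regulator of the pathway, fell from 2559 ± 86.7 to 530.2 ± 20.2 normalised counts, by 2.27 on the log2 scale (SE 0.07, adjusted p = 1.4e-10). Ptpn14, a phosphatase that binds YAP and, like Lats2, is counted in this list and among the other targets, fell from 696 ± 56.8 to 196 ± 9.37, by 1.83, and Taok2, a kinase that activates MST, from 2615 ± 119 to 939 ± 41.5, by 1.48. The scarce cadherins Fat4 and Dchs1, named after their values were seen, also fell, Fat4 from 98.0 ± 10.1 to 16.4 ± 10.3 normalised counts and Dchs1 from 17, 25 and 19 counts to 0, 0 and 3. The median of the list was also -0.81 with Dchs1, at or under 3 counts in every TNF-α+EMO library, set to its bound of 3 counts per library.

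Of 14 other partners and regulators of YAP, TAZ and TEAD listed, 12 were in the table and 10 tested, of which 6 fell, 1 rose and 3 were not called. Over all tested genes 41.4% fell and 39.4% rose. By more than 1 on the log2 scale 5 of the 10 fell, beside 27.8% of all tested genes, and the median log2 fold change was -0.84. Lpp, a LIM-domain protein of adhesions, fell from 512 ± 63.8 to 136 ± 30.3 normalised counts (log2 fold change -1.91, SE 0.16), Amotl1, an angiomotin like Amotl2, from 844 ± 9.11 to 261 ± 10.7 (-1.70, SE 0.08) and Vgll4, which competes with YAP for TEAD, from 525 ± 20 to 204 ± 9.49 (-1.36, SE 0.09). Btrc, part of the ubiquitin ligase that degrades YAP and TAZ, was the gene that rose, by 0.20 (SE 0.08, adjusted p = 0.037), a call lost with DESeq2, with library totals and without TNF-α+EMO replicate 1 or TNF-α replicate 2 or 3 (adjusted p = 0.059 to 0.33). Csnk1d and Csnk1e, the casein kinases that prime this degradation, had log2 fold changes of 0.00 and 0.03 (SEs 0.06 and 0.07) and Limd1, a relative of Ajuba, of -0.14 (SE 0.07), and none of the 3 was called. Amot and Vgll2 had too few counts to test.

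Of the 7 14-3-3 genes, 3 fell, 1 rose and 3 were not called, and none changed by more than 1 on the log2 scale. Over all tested genes 80.9% were called, and 47.3% were called with a change of more than 1. Ywhag rose from 7129 ± 148 to 11668 ± 525 normalised counts, a log2 fold change of 0.71 (SE 0.06, adjusted p = 4.9e-07), while Ywhah fell by 0.63, Ywhae by 0.26 and Ywhaq by 0.21. Ywhab, Ywhaz and Sfn were not called, at log2 fold changes of -0.03, 0.09 and -0.25 (SEs 0.05, 0.05 and 0.48). The median of the list was -0.21, beside -0.01 over all tested genes, and it was -0.06 without TNF-α+EMO replicate 2 and -0.10 without TNF-α replicate 2.

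**Figure D5:**
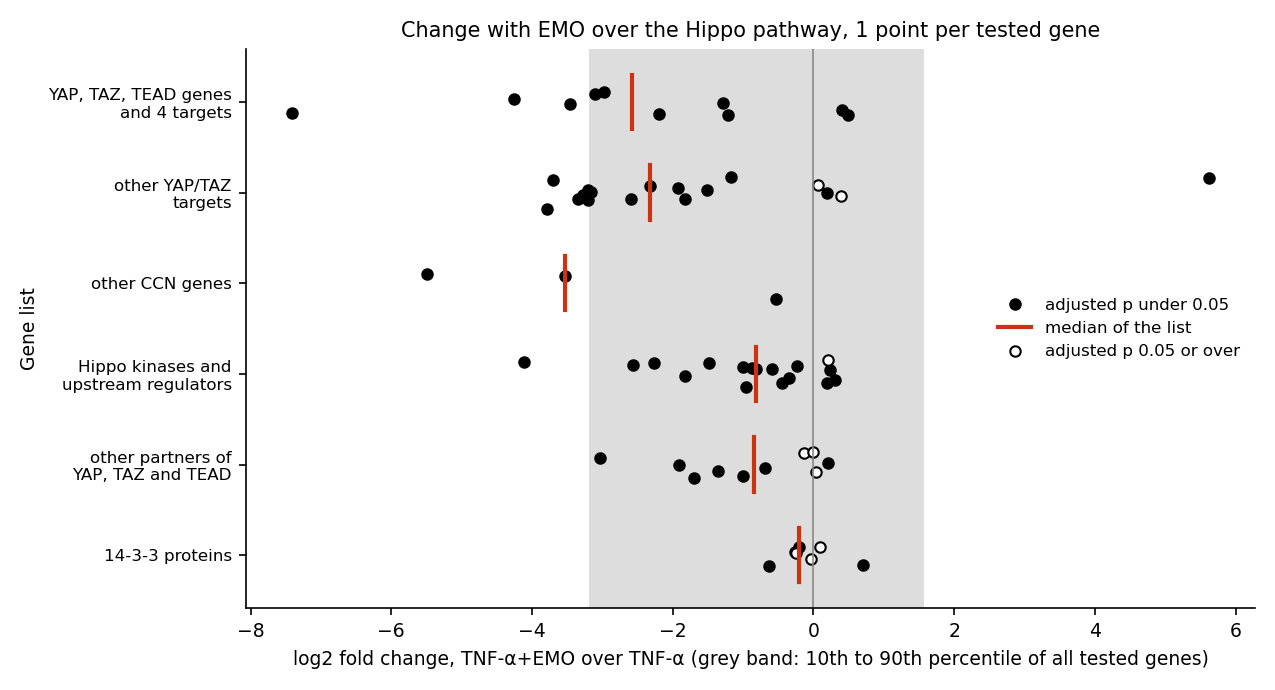
log2 fold change of TNF-α+EMO over TNF-α for every tested gene of 6 lists (1 point per gene, filled at an adjusted p under 0.05), with the list's median (red line) and the 10th to 90th percentile of all tested genes (grey band). The medians of the YAP, TAZ and TEAD genes with their targets, of the other targets and of the other CCN genes are -2.59, -2.33 and -3.53, whereas those of the kinases, partners and 14-3-3 proteins lie between -0.84 and -0.21.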

How the data were processed

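Poly(A)-selected RNA of rat RA-FLS was sequenced in 6 paired-end libraries. Reads were filtered and then mapped by the authors with HISAT2. The submitters' processing notes name FastQC, Trimmomatic and Rnor_6.0. The counting program, annotation version and strand setting are not given in the sources used here. The authors deposited raw counts per gene for each library, FPKM values (fragments scaled to gene length and depth) used here only as an alternative for shares, and gene lengths. Columns with the authors' own group means, fold changes and p-values were not used.

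A gene was tested where 3 or more libraries held 10 or more of its counts (13614 genes), with edgeR 4.0.16 in R 4.3.3 (TMM, robust quasi-likelihood fit and F test, no covariate) and Benjamini-Hochberg adjustment over all of them. The standard error is the log2 fold change divided by the square root of F. Shares were compared by exact permutation tests (scipy 1.17.1). On simulated counts for this comparison (13526 genes, 200 of them changed 2-fold), edgeR recovered 99.5% with 6.13% false calls. In the data 80.9% of tested genes were called, and the rate of false calls with so many changed genes was not tested. Alternatives were DESeq2 1.42.0, other scalings and filters, the replicate block and leaving out each library, refitted on the same genes.

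The genes and lists were chosen with earlier results of these data known. The text names all 10 genes, the core kinases, Ankrd1, Axl, genes not called, and up to 3 genes at each end of each list among those called with a mean of at least 100 counts. Wtip, Vgll1 and Foxf2, and the markers Col1a2 and Pecam1, were not analysed here.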

Additional observations from a re-analysis of the deposited data

How the results depend on the processing

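The 10 calls on YAP, TAZ, TEAD and target genes and the counts of lower genes in every list kept their direction and side of the threshold, or stayed within 1.5 times, in all 12 alternative fits. Scaling by library totals left 0 higher kinases (0 also at an unadjusted p under 0.05 by edgeR), 0 higher partners and 1 higher target. DESeq2, run with its own scaling only, called 3 kinases higher. Library totals also moved the medians of the kinases and 14-3-3 genes to -0.92 and -0.32. They moved the summed Yap1 and Wwtr1 level to -0.63 (log2). DESeq2 called 0 partners higher (1 at an unadjusted p under 0.05), and a filter of 1 CPM moved the 14-3-3 median to -0.13. Leaving out 1 library at a time gave 1 to 4 higher kinases, 0 to 1 higher partners, 1 to 2 higher targets and 14-3-3 medians of -0.21 to -0.06. Without division by length, the shares of Tead3 and Tead4 differed by 59.0 and -3.51 points (56.2 and -1.33 with it). The summed TEAD level changed by -3.52 (log2) without Tead3. Alternatives for the summed levels and the block on the Yap1 share were chosen after seeing the data. The cause of these moves was not tested. Of 62 genes refitted, 55 kept their call throughout and none reversed.

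Same-numbered libraries of the groups deviated together little (r of -0.00683 to 0.0676, and -0.0701 to 0.0528 for the other pairs). No clear pairing by number was seen, although such low correlations cannot exclude one. With the replicate block, 10806 genes were called in place of 11008, and all 10 calls were kept. The Yap1 share differed by -27.0 points with an exact permutation within numbers (p = 0.25, the smallest possible). Permutation tests of 3 against 3 libraries cannot go below 0.1, and the 7 to 11 counts of Tead4 with EMO limit its precision.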
